A study of Mus musculus with 8 samples.

Results

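The 9 genes described here, Elovl4, Cyp4f39, Cers3, Pnpla1, Ugcg, Abca12, Alox12b, Aloxe3 and Smpd1, encode proteins that make, carry or process the ceramide lipids of the epidermal barrier. They were chosen by name, as the rows of the expression tables that carry these symbols, and stand beside 26340 gene symbols in the table of unperturbed keratinocytes, 46036 in that of plucked skin and 46048 in that of wounds. All 9 were found in each of the 3 tables and all 9 had an FPKM (reads scaled to transcript length and to the size of the library) of at least 1. Among unperturbed keratinocytes, 8 were found under the present symbol and Cers3 under its older symbol Lass3, at the same position on chromosome 7.

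All mice were on a C57BL/6 background. Wild type mice (JunB +/+ in the labels) were compared with JunB cKO mice (JunB -/- in the labels), in which floxed JunB alleles are deleted by a Cre recombinase under the K14 promoter, so that the deletion is limited to the basal layer of the epidermis and its descendants, whereas dermal cells keep the gene. The unperturbed pair consisted of keratinocytes, which the study describes as dorsal skin of 60-days-old mice. The other pairs consisted of skin biopsies taken 4 days after hair depilation and of skin 30 days after wounding. The methods place hair depilation at postnatal day 54 and harvest at day 58, and the age of the wounded mice is not given in the sources used here. RNA of 3 samples was pooled per group according to the methods. There was 1 library per genotype for unperturbed keratinocytes and for plucked skin, and there were 2 per genotype for wounds, whose table holds 1 value per genotype. With 1 value per genotype in each table there was no spread between replicates, so none of the differences below could be tested, and all of them are descriptions of the sequenced libraries.

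The epidermal barrier depends on ceramides with very long fatty acids. The elongase ELOVL4 lengthens the fatty acid, CYP4F39 hydroxylates its end, the ceramide synthase CERS3 joins it to a sphingoid base and PNPLA1 adds linoleate to give acylceramide. UGCG attaches glucose, ABCA12 loads the glucosylated lipid into lamellar bodies of the granular layer, the lipoxygenases ALOX12B and ALOXE3 then oxidise the linoleate so that the lipid can be bound to the cornified envelope, and the acid sphingomyelinase SMPD1 releases further ceramide from sphingomyelin. Inherited loss of most of these genes gives ichthyosis, a scaling disorder of the skin.

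The promoters of Elovl4, Alox12b and Smpd1 are shown because these genes had the largest differences between the genotypes. The sequences run 5′ to 3′ on the strand of the gene, are taken from RefSeq on GRCm38.p6, and carry in capitals each copy of the GC box GGGCGG on either strand. For Alox12b and Smpd1 they end at the base before the gene start given below, and for Elovl4 further upstream of it. Elovl4 and Smpd1 are shown with 250 bases and Alox12b with 167. The Elovl4 promoter lies at chr9:83806306-83806555 on the minus strand, that of Alox12b at chr11:69156822-69156988 on the plus strand and that of Smpd1 at chr7:105554110-105554359 on the plus strand.

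Elovl4: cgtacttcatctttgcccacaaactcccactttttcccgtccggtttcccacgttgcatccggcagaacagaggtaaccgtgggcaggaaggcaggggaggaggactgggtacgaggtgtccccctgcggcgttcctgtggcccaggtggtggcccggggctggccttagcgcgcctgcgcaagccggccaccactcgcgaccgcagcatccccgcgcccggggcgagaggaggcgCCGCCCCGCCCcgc

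Alox12b: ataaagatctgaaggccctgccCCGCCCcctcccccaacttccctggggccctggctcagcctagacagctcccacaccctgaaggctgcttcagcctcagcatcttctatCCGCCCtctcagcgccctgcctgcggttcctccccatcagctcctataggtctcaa

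Smpd1: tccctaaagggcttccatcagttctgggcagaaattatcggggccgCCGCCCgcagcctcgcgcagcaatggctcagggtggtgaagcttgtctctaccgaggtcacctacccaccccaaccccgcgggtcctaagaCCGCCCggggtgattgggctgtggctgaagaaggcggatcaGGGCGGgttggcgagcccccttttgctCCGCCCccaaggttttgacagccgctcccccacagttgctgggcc

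The GC box occurred 2 times in the 250 bases shown for Elovl4, 2 times in the 167 for Alox12b and 4 times in the 250 for Smpd1. Promoter windows of 250 bases before to 50 bases after the start were present for 8 of the 9 genes, all but Aloxe3. Of these 8, 4 held GGGCGG on either strand, namely Elovl4, Alox12b, Ugcg and Smpd1, against 35.7% of 32851 mouse promoter windows. The AP-1 motif TGANTCA, to which Jun and Fos dimers bind and which reads alike on both strands up to its middle base, occurred in 0 of the 8 windows and in 7.81% of all windows. The sequence TATAAA on either strand was also in 0 of the 8 windows and in 13.6% of all. CANNTG, the E-box, was in 6 of the 8 windows and in 72.3% of all. These matches describe the letters of a short window only.

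In the level of expression, Elovl4 was the highest of the 9 genes in each of the 6 values. Its FPKM made up 55.7% of the sum of the 9 genes in wild type and 46.5% in JunB cKO keratinocytes, 72.6% and 62.6% after plucking, and 45.3% and 54.5% in wounds. The next place was taken by Abca12 in unperturbed keratinocytes and plucked skin and by Ugcg in wounds, in both genotypes. Pnpla1 had the lowest level of the 9 genes in 5 of the 6 values and Alox12b in wild type wounds, where Alox12b at 6.35 and Aloxe3 at 8.55 FPKM lay next to Pnpla1 at 8.85. The 3 tables were normalized separately, so levels in different tables are only set side by side.

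**Figure D1:**
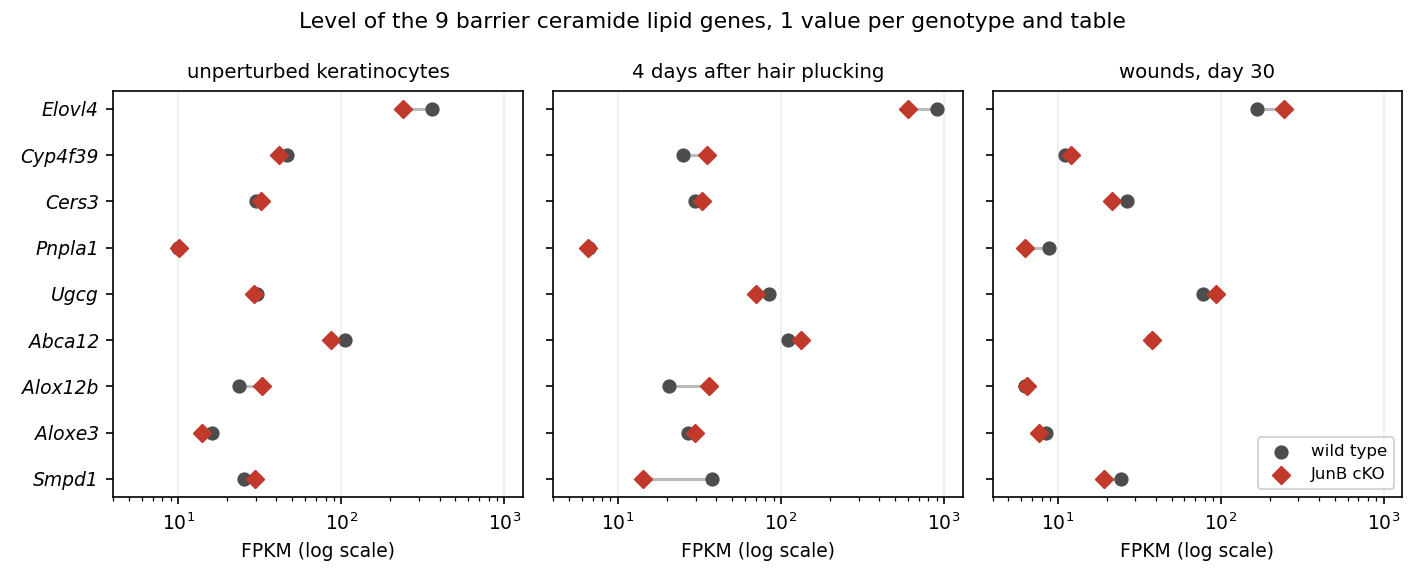
FPKM of the 9 genes (horizontal axis, log scale) in wild type (grey circles) and JunB cKO (red diamonds), with 1 value per genotype in each of the 3 tables and no error bars because there are no replicate values. Elovl4 lies furthest to the right in every panel, at 360 and 239 FPKM in unperturbed keratinocytes, and most pairs of symbols nearly overlap; the widest gap is that of Smpd1 after plucking.

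Ratios are log2 values of JunB cKO over wild type FPKM after 1 was added to both, which understates the difference of genes with a low FPKM. Over the 9 genes, the median log2 ratio was -0.06 in unperturbed keratinocytes, 4 genes being above and 5 below wild type, 0.13 after plucking, with 5 higher and 4 lower, and 0.01 in wounds, with 5 higher and 4 lower. The median over all genes reaching 1 FPKM in one genotype or the other was -0.03, 0.03 and 0.01, respectively. In unperturbed keratinocytes, 0 of the 9 genes were 2-fold or more above wild type and 0 as far below it, beside 15.4% higher and 1.40% lower among 15883 genes. The JunB cKO library of this pair gave 1285 of 1490 odorant, vomeronasal and bitter taste receptor genes a value above 0, the wild type library only 73. Their median in JunB cKO was 0.543 FPKM. A gene needed only 1 FPKM in either genotype to enter the 15883, whereas each of the 9 had 9.90 or more. The 15.4% and 1.40%, the 23.0% and 6.60% given below for 1.5-fold, and the median of -0.03 are therefore not a like background for the 9 genes. Over the genes reaching 1 FPKM in both genotypes of this pair, the median log2 ratio was -0.15. The part of this low level in them was not tested. After plucking, 0 of 9 were past 2-fold upwards and 1, Smpd1, past 2-fold downwards, beside 18.2% and 16.0% of 16221 genes. In wounds, 0 of 9 were past 2-fold in either direction, beside 5.69% higher and 5.23% lower among 17346 genes. At a limit of 1.5-fold, 1 of 9 genes (Elovl4) was lower and 0 higher in unperturbed keratinocytes, beside 6.60% and 23.0% of all genes. After plucking, 1 of 9 (Alox12b) was 1.5-fold higher and 2 of 9 (Elovl4 and Smpd1) were 1.5-fold lower, beside 27.6% and 25.1% of all genes. In wounds 0 of 9 were past 1.5-fold, beside 13.0% higher and 10.9% lower. The shares over the 9 genes rest on so few genes that 1 gene is 11.1% of them.

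**Figure D2:**
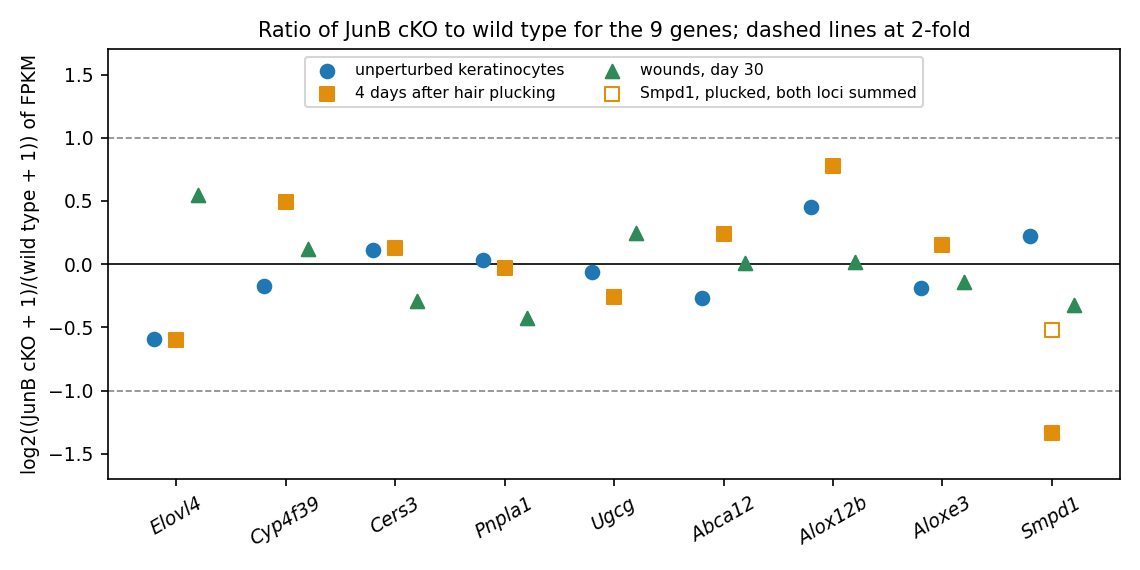
Log2 ratio of JunB cKO to wild type FPKM, with 1 added to both, for the 9 genes in unperturbed keratinocytes (blue circles), after plucking (orange squares) and in wounds (green triangles); the dashed lines mark 2-fold and the open square is Smpd1 after plucking with both of its loci summed. Elovl4 lies at -0.59 and -0.60 in the first 2 comparisons and at 0.55 in wounds, and the filled square of Smpd1 at -1.34 is the only symbol beyond 2-fold.

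Synthesis of the fatty acid was represented by Elovl4 and Cyp4f39. Elovl4 (ENSMUSG00000032262.13, chromosome 9 from 83778692 to 83806277 on the minus strand of GRCm38, 6 exons) was at 360 FPKM in wild type against 239 in JunB cKO keratinocytes (log2 ratio -0.59), and at 908 and 598 after plucking (log2 ratio -0.60). In wounds it was at 168 in wild type against 246 in JunB cKO (log2 ratio 0.55). Thus Elovl4 was lower in JunB cKO in the first 2 pairs and higher in the third. Relative to the summed FPKM of Krt1 and Krt10, keratins of the suprabasal epidermis, the difference in wounds turned to -0.07. Krt1 and Krt10 had the highest log2 ratios of the 5 suprabasal markers in each comparison. All ratios relative to them, here and below, depend on that choice. Cyp4f39 (ENSMUSG00000061126.5, chromosome 17 from 32452723 to 32493320 on the plus strand, 14 exons) was at 46.6 and 41.2 in unperturbed keratinocytes (log2 ratio -0.17), 25 and 35.4 after plucking (log2 ratio 0.49), and in wounds at 11.1 and 12.1 (log2 ratio 0.12), where its locus begins at 32468462 and thus leaves out the 5′ part of the gene. Its value after plucking was the second highest ratio of the 9 genes in that table, but it turned to -0.34 relative to Krt1 and Krt10.

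Assembly of the acylceramide was represented by Cers3 and Pnpla1, whose ratios of deposited FPKM were between -0.03 and 0.13 in unperturbed keratinocytes and plucked skin. Relative to Krt1 and Krt10, the log2 ratios there were -0.44 and -0.69 for Cers3 and -0.52 and -0.86 for Pnpla1. Cers3 (ENSMUSG00000030510.11, chromosome 7 from 66743504 to 66823691 on the plus strand, 11 exons) was at 29.8 FPKM in wild type against 32.2 in JunB cKO keratinocytes, at 29.9 and 32.8 after plucking, and at 26.7 and 21.7 in wounds, with log2 ratios of 0.11, 0.13 and -0.29. Pnpla1 (ENSMUSG00000043286.12, chromosome 17 from 28858411 to 28890309 on the plus strand, 10 exons) was at 9.90 and 10.1, at 6.68 and 6.53, and at 8.85 and 6.30 FPKM, respectively. Its log2 ratios were 0.03, -0.03 and -0.43, the last being the lowest of the 9 genes in wounds.

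Glucosylation and transport were represented by Ugcg and Abca12. Ugcg (ENSMUSG00000028381.8, chromosome 4 from 59189257 to 59222833 on the plus strand, 9 exons) was at 30.2 FPKM in wild type against 29.0 in JunB cKO keratinocytes, at 84.7 and 70.4 after plucking, and at 78.5 and 93.6 in wounds, with log2 ratios of -0.06, -0.26 and 0.25. Ugcg and Elovl4 were the 2 genes of the 9 that were lower in JunB cKO in unperturbed keratinocytes and plucked skin and higher in wounds. In wounds the ratio of Ugcg turned to -0.08 relative to the basal keratins Krt5 and Krt14. Of these, Krt14 had a log2 ratio of 0.48 there and Krt5 of -0.02. Relative to Krt1 and Krt10 the ratio of Ugcg turned to -0.37. In unperturbed keratinocytes it turned to 0.09 when centred on the median ratio of the genes reaching 1 FPKM in both genotypes, which was -0.15. Abca12 (ENSMUSG00000050296.14, chromosome 1 from 71242276 to 71414910 on the minus strand, 53 exons) was at 105 and 86.6 (log2 ratio -0.27), at 111 and 132 (log2 ratio 0.24), and at 38 and 38.1 FPKM (log2 ratio 0.01).

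The lipoxygenases Alox12b and Aloxe3 are neighbours on the plus strand of chromosome 11, where Aloxe3 (ENSMUSG00000020892.10) lies from 69125896 to 69149115 and Alox12b (ENSMUSG00000032807.5) from 69156989 to 69169792, with 15 exons each. Alox12b was at 23.6 FPKM in wild type against 32.5 in JunB cKO keratinocytes (log2 ratio 0.45), and at 20.5 and 36.0 after plucking (log2 ratio 0.78), the highest ratio of the 9 genes in both tables. In wounds it was at 6.35 and 6.46 (log2 ratio 0.02). Aloxe3, which acts on the product of ALOX12B, was at 16.1 and 14.0 (log2 ratio -0.19), at 26.8 and 29.9 (log2 ratio 0.15), and at 8.55 and 7.68 (log2 ratio -0.14). Relative to Krt1 and Krt10, the log2 ratio of Alox12b was -0.10 in unperturbed keratinocytes and -0.04 after plucking. The other suprabasal markers, Krtdap, Sbsn and Dsc1, had log2 ratios of 0.30, -0.39 and -0.23 in keratinocytes. In plucked skin they were at 0.21, 0.10 and 0.19, so the loss of the higher level depends on the choice of Krt1 and Krt10. Alox12b was accompanied by markers of the granular layer, in which it is used: the 5 genes Lor, Flg, Ivl, Hrnr and Cnfn were all higher in JunB cKO in unperturbed keratinocytes, with a summed FPKM of 248 in wild type against 579 in JunB cKO, and all higher after plucking, with 1413 and 2072. In wounds 2 of the 5 were higher and 3 lower, with 497 and 440. Of these markers Ivl differed least in keratinocytes, at 103 and 113 FPKM. Abca12, which loads lamellar bodies of the same layer, and Aloxe3 had log2 ratios of -0.27 and -0.19 in keratinocytes. After plucking theirs were 0.24 and 0.15. The part of the granular genes in the ratio of Alox12b was not tested.

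Smpd1 (ENSMUSG00000037049.9, chromosome 7 from 105554360 to 105558389 on the plus strand, 6 exons) was at 25.2 FPKM in wild type against 29.6 in JunB cKO keratinocytes (log2 ratio 0.22) and at 24.4 and 19.4 in wounds (log2 ratio -0.32). After plucking its larger locus was at 37.6 in wild type against 14.2 in JunB cKO (log2 ratio -1.34). The same table lists a second Smpd1 locus with the same coordinates, at 8.63 in wild type against 17.7 in JunB cKO (log2 ratio 0.96). The rows around the larger locus belong to genes of the plus strand (38 of 38 with a known strand) and those around the second locus to genes of the minus strand (42 of 42), so that the second locus was placed opposite to Smpd1. Summed over both, Smpd1 was at 46.2 in wild type against 31.9 in JunB cKO (log2 ratio -0.52), and 18.7% of the sum in wild type and 55.5% in JunB cKO stood on the minus strand. The 2-fold difference of Smpd1 after plucking was therefore present on 1 of its 2 loci and absent from their sum. The wound table has 1 locus there, and the unperturbed table lists a predicted gene, LOC100861751, opposite to Smpd1 at 1.31 and 3.33 FPKM. After plucking, 616 pairs of symbol and position have 2 loci, and over the 295 whose sum reached 10 FPKM in each genotype the median share on the smaller locus was 1.6% for wild type and 3.66% for JunB cKO. That share was over 50% for 12 of the 295 in wild type and for 15 in JunB cKO.

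The other genes of the pathway were taken from 5 lists of 60 genes in all. Of these, 56 were at an FPKM of at least 1 in unperturbed keratinocytes, of which 1 was past 2-fold upwards and 4 downwards, the median log2 ratio being -0.37. After plucking, 3 of 55 were past 2-fold upwards and 4 downwards (median -0.10), and in wounds 2 of 56 were higher and 2 lower, with a median of 0.08. Among all genes, 15.4% were past 2-fold upwards and 1.40% downwards in keratinocytes, 18.2% and 16.0% after plucking, and 5.69% and 5.23% in wounds. As said above, the keratinocyte shares are not a like background for well expressed genes. The median there was -0.15 over the genes reaching 1 FPKM in both genotypes. For the counts of direction that follow, 52.8% of 15883 genes reaching 1 FPKM were lower in JunB cKO keratinocytes, or 65.1% of the 10791 that reached it in every table. After plucking 48.8% were lower, and in wounds 48.6%.

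Fatty acid elongation, hydroxylation and activation was the list with the lowest median in unperturbed keratinocytes. Of its genes, 13 of 14 were lower in JunB cKO keratinocytes (median log2 ratio -0.56), 12 of 15 were lower after plucking (median -0.41) and 12 of 15 were higher in wounds (median 0.28). Lower, lower and higher in this order was the direction of 10 of its 14 genes that could be followed through the 3 tables, of 2 of the 9 barrier genes and of 16.7% of 10791 genes. Fa2h, which hydroxylates fatty acids for 2-hydroxyceramides, was at 58.5 FPKM in wild type against 26.4 in JunB cKO keratinocytes (log2 ratio -1.12), at 83.3 and 62.6 after plucking and at 15.9 and 38.6 in wounds (log2 ratio 1.23). The elongase gene Elovl6 was at 89.8 and 47.8, at 470 and 184 (log2 ratio -1.35), and at 70.3 and 122. Elovl5 was at 56.5 and 26.6 in keratinocytes (log2 ratio -1.06) and Elovl3, an elongase of the sebaceous gland, at 68.0 and 28.0 after plucking (log2 ratio -1.25). Acsl4, an acyl-CoA synthetase gene, was at 19.4 and 40.0 in wounds (log2 ratio 1.01). Tecr, which completes each elongation cycle, was at 302 and 228 in keratinocytes and at 113 and 120 in wounds.

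The 5 sebocyte markers Awat1, Awat2, Mc5r, Scd1 and Scd3 had the same directions as Elovl4 and as 10 of the 14 elongation genes. All 5 were lower in JunB cKO keratinocytes (summed FPKM 427 in wild type against 232 in JunB cKO), all 5 lower after plucking, where the sum of 949 and 676 consisted mostly of Scd1 at 826 and 592 and the median log2 ratio of the 5 was -0.12, and all 5 higher in wounds (423 and 1073), and none was listed at 0. Sebaceous glands use several of the same elongases, and the part of sebocytes in the values of Elovl4 was not tested. In such bulk samples fewer cells of a type and less RNA per cell cannot be told apart.

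**Figure D3:**
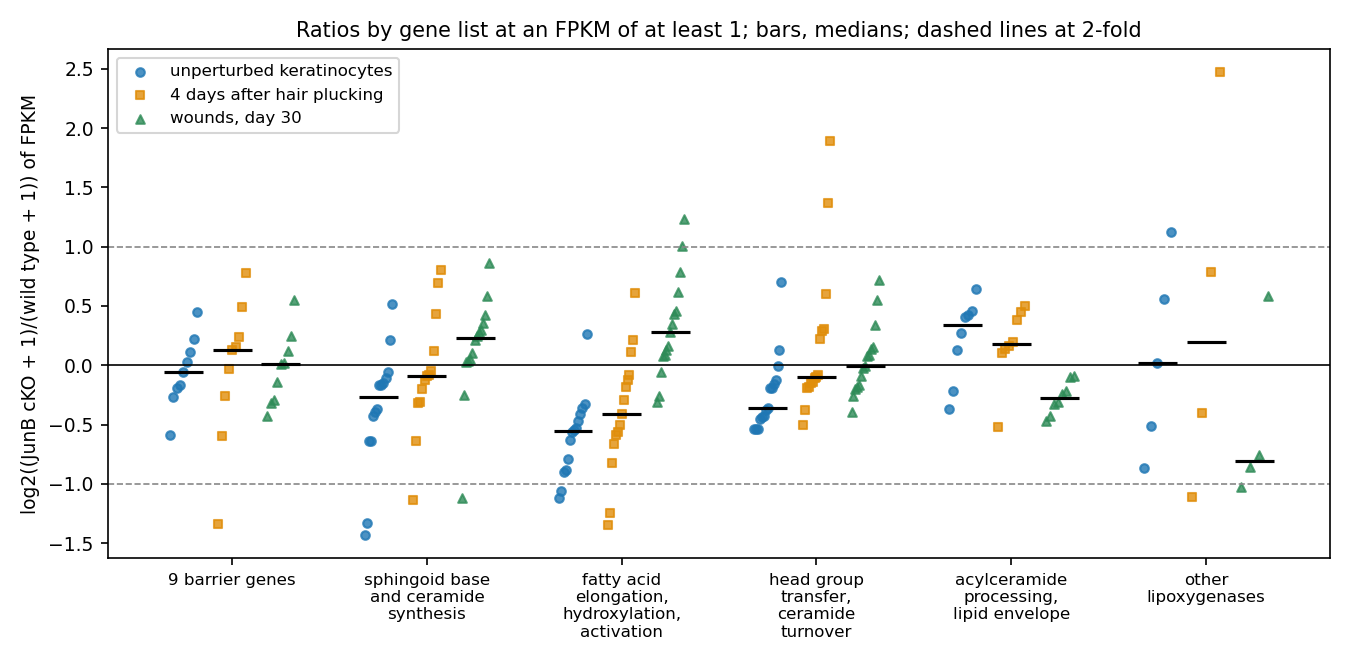
Log2 ratio of JunB cKO to wild type FPKM, with 1 added to both, of the 9 barrier genes and of the 5 other gene lists of the pathway in unperturbed keratinocytes (blue circles), after plucking (orange squares) and in wounds (green triangles); each symbol is a gene with an FPKM of at least 1 and black bars are medians. The elongation list has medians of -0.56, -0.41 and 0.28, and the acylceramide processing list has the opposite order with 0.34, 0.18 and -0.28.

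Acylceramide processing and the lipid envelope, with 8 genes, showed the reverse order. In JunB cKO, 6 of 8 genes were higher in keratinocytes (median log2 ratio 0.34), 7 of 8 were higher after plucking (median 0.18) and 8 of 8 were lower in wounds (median -0.28), but 0 of 8 were past 2-fold in any table. Higher, higher and lower was the direction of 6 of these 8 genes, of 1 barrier gene (Cers3) and of 8.86% of all genes. The 2 genes of this list with the highest levels were Abhd5, the partner of PNPLA1, at 50.9 and 43.5 FPKM in keratinocytes, 87.4 and 60.5 after plucking and 65.4 and 55.9 in wounds, and the lipase gene Lipm at 76.2 and 58.6, 71.4 and 82.2, and 41.7 and 32.9.

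Sphingoid base and ceramide synthesis had medians of -0.27 over 14 genes in keratinocytes, -0.09 over 13 after plucking and 0.23 over 14 in wounds. Sptssa, a small subunit of serine palmitoyltransferase, was at 244 FPKM in wild type against 90.1 in JunB cKO keratinocytes (log2 ratio -1.43), at 77 and 83.7 after plucking and at 34.7 and 63.7 in wounds. Its homologue Sptssb was at 11.6 and 4.77 in wounds (log2 ratio -1.12) and below 1 FPKM or listed at 0 elsewhere. Among the ceramide synthases other than Cers3, Cers4 was at 29.8 and 11.2 in keratinocytes (log2 ratio -1.33) and Cers5 at 60.7 and 26.9 after plucking (log2 ratio -1.14). Degs1, the desaturase that completes ceramide, was at 65.4 and 58.1, 64.2 and 62.1, and 52.8 and 54.8.

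In head group transfer and ceramide turnover, 13 of 15 genes were lower in JunB cKO keratinocytes (median log2 ratio -0.36), while the medians were -0.10 after plucking and -0.01 in wounds. The genes past 2-fold were Smpd2, a neutral sphingomyelinase gene at 3.45 FPKM in wild type against 15.5 in JunB cKO (log2 ratio 1.89), and the sphingosine kinase gene Sphk2 at 15.7 and 42.2 (log2 ratio 1.37), both after plucking. Psap, the precursor of the saposins, was at 139 and 95.0 in keratinocytes and 194 and 206 in wounds, and the sphingomyelin synthase gene Sgms1 at 51.4 and 39.3 in keratinocytes and 71.3 and 62.1 in wounds.

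The other lipoxygenases had median log2 ratios of 0.02 over 5 genes in keratinocytes, 0.19 over 4 after plucking and -0.81 over 4 in wounds. Among them, Alox12e was the most abundant, at 264 FPKM in wild type against 144 in JunB cKO keratinocytes (log2 ratio -0.87), 113 and 51.7 after plucking (log2 ratio -1.11) and in wounds at 32.6 and 49.2 (log2 ratio 0.58), so that its ratio had the opposite sign to that of Alox12b in the first 2 tables. Alox8 was at 1.40 and 12.2 after plucking (log2 ratio 2.47) and at 19.0 and 10.8 in wounds (log2 ratio -0.76), and Alox12 at 4.37 and 8.29, and at 4.01 and 1.76, respectively. Alox5, a lipoxygenase of leukocytes, was at 6.11 and 2.48 in wounds (log2 ratio -1.03). Alox15, the only pathway gene past 2-fold upwards in keratinocytes, was listed at 0 in wild type against 1.18 in JunB cKO. In the latter library odorant, vomeronasal and bitter taste receptor genes had a median of 0.543 FPKM, and with this median subtracted the log2 ratio of Alox15 went from 1.12 to 0.71, below 2-fold, an alternative chosen after seeing the data.

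The composition of the samples differed between the tables and between genotypes. In unperturbed keratinocytes the 6 fibroblast markers summed to 13.7 FPKM in wild type against 12.5 in JunB cKO and the 4 endothelial markers to 0.490 and 2.52, the latter in a library whose receptor genes had a median of 0.543 FPKM each, beside 5904 and 5602 for the 5 basal keratinocyte markers. After plucking, whose tissue is likewise labelled keratinocyte, fibroblast markers summed to 5109 in wild type against 1856 in JunB cKO, leukocyte markers to 207 and 73.5, and markers of the inner root sheath and hair shaft to 62.8 and 610, of which Krt31 and Krt35 were listed at 0 in wild type. In wounds the fibroblast markers summed to 10532 and 13412 and the 3 skeletal muscle markers found to 1807 and 2136. The summed FPKM of the basal keratins Krt5 and Krt14 was 3804 in wild type against 3803 in JunB cKO keratinocytes, 3061 and 2553 after plucking and 1056 and 1325 in wounds, and that of Krt1 and Krt10 was higher in JunB cKO in each table, at 4238 and 6199, 2809 and 4982, and 1483 and 2281. The part of these differences in the ratios of the barrier genes was not tested.

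**Figure D4:**
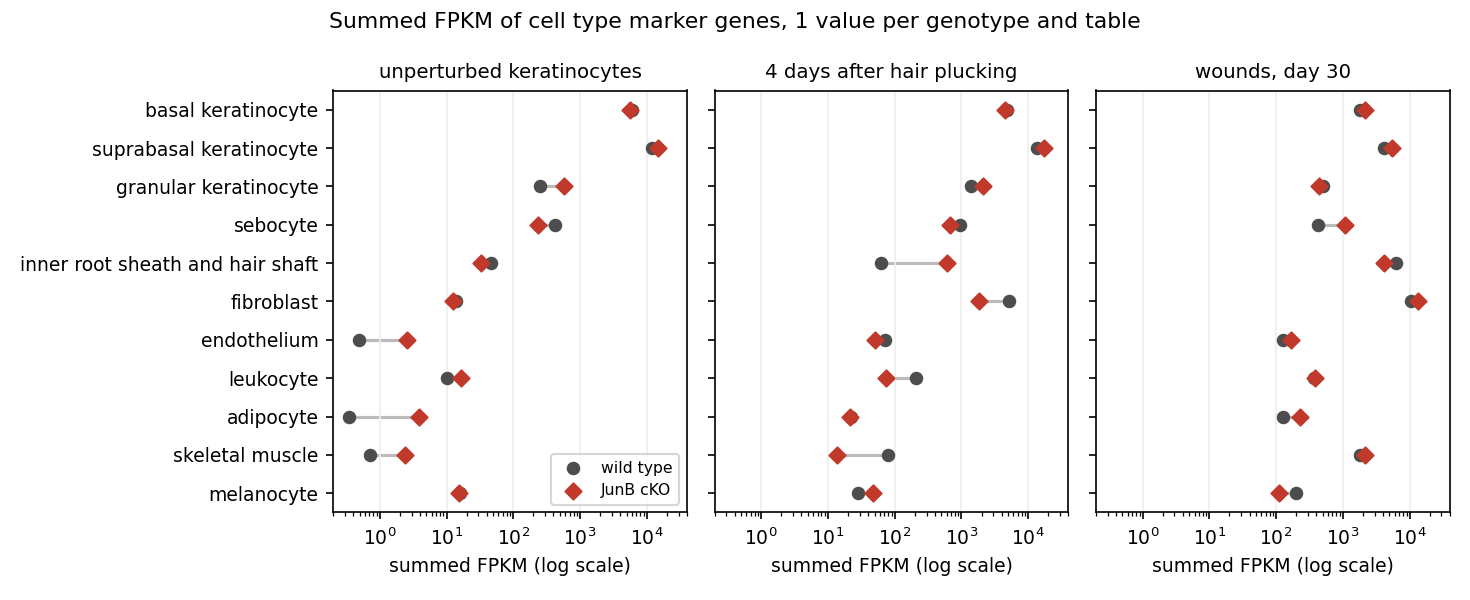
Summed FPKM (horizontal axis, log scale) of the marker genes of 11 cell types in wild type (grey circles) and JunB cKO (red diamonds), 1 value per genotype and table. Fibroblast markers lie near 13 FPKM in unperturbed keratinocytes and at 1856 or more in plucked skin and wounds, and the hair shaft markers lie further apart after plucking, at 62.8 and 610, than in the other tables.

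The targeted gene Junb was at 268 FPKM in wild type against 31.4 in JunB cKO keratinocytes, 40.8 and 11.7 after plucking, and 33.4 and 15.4 in wounds. Single-exon receptor genes, whose low values come in steps of 1 read, gave 13.3 reads per FPKM and kilobase for wild type keratinocytes, 3.92 for JunB cKO keratinocytes, 34.1 and 31.7 for wounds and 10.1 for plucked JunB cKO skin, with too few loci for plucked wild type skin. The 31.7 for JunB cKO wounds rested on 2 loci and the 10.1 on 3, so these depths and the errors from them are rough. The others rested on 25 loci (wild type keratinocytes), 235 (JunB cKO keratinocytes) and 21 (wild type wounds). On this scale the 9 genes had about 166 to 3101 reads each in JunB cKO keratinocytes, and counting error alone gave a standard error of the log2 ratio between 0.029 and 0.13 in keratinocytes and between 0.015 and 0.09 in wounds, without any variation between mice. Of 1490 odorant, vomeronasal and bitter taste receptor genes, 73 were above 0 in wild type against 1285 in JunB cKO keratinocytes, with a median of 0.543 FPKM in the latter. All 9 barrier genes were well above that level, and subtracting it moved none of their log2 ratios by as much as 0.1.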

How the data were processed

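For each group, RNA from 3 samples was combined, freed of rRNA and read in 75-base single-end runs of strand-specific libraries. The authors aligned the reads to GRCm38 (mm10) with TopHat 2.1.0 or HISAT2, assembled loci with Cufflinks 2.2.1 and computed with Cuffdiff the deposited FPKM, 1 value per genotype and locus. The 2 wound libraries per genotype were merged by the authors into 1 value. The columns of fold changes, p-values and q-values hold the authors' own comparison and were not used.

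Groups came from the sample labels. The genotype of a column was read from the table itself (WT and KO, Co and Mut), and the condition of the plucked and wound tables only from the names of the tables. Each symbol was represented by its locus with the largest summed FPKM, and loci with several symbols were left out. Older symbols were matched through RefSeq synonyms at an overlapping position. Failing that, a listed alias was accepted for the pathway genes without a check of position. Matching found 59, 58 and 58 of the 60 pathway genes. Gene positions are from GENCODE release M21. Ratios used a pseudocount of 1. Genes of the lists were named when at least 2-fold different in any table or among the 2 highest of their list. No test was possible with 1 value per genotype, and the planned limma fit of the wound libraries was not run. The 9 genes and the lists were chosen with earlier results of these data known. Depth was taken from the smallest steps of receptor loci of 880 to 1000 bp. The code for the ratio and the 2-fold calls was checked on simulated data. These held only changes well past the limit in well expressed genes, so calls near the limit or at low FPKM were not tested. Alternatives were other pseudocounts, a minimum FPKM of 5, the sum over loci, 3 scalings, subtraction of the receptor median and a 1.5-fold limit. Python 3.11.15, pandas 2.3.3, numpy 2.4.6 and matplotlib 3.10.9 were used. A gene that the rule for like profiles would name is not reported here.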

Additional observations from a re-analysis of the deposited data

Results flagged for a closer look

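Several genes had log2 ratios of at least 0.5 in opposite directions in 2 comparisons. With 1 value per genotype these differences between comparisons were not tested. Among the 9 barrier genes this was Elovl4, whose log2 ratio was 1.15 higher in wounds than after plucking. In the other lists, the log2 ratio in wounds was 2.28 above that in unperturbed keratinocytes for Sptssa, 2.35 for Fa2h and 1.80 for Acsl4. In wounds it was 2.14 above that after plucking for Elovl6 and 1.69 for Alox12e. For Alox8 and Alox12 the difference between wounds and hair plucking was -3.23 and -1.65. For Smpd2 the log2 ratio after plucking was 2.43 above that in unperturbed keratinocytes. The limit of 0.5 was set with the values in view.

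The locus opposite to Smpd1 in the plucked table, which entered the ratio of Smpd1 only where both loci were summed, was at 17.7 FPKM in JunB cKO and 8.63 in wild type. How reads were assigned to the strands there was not tested.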

How the results depend on the processing

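The pseudocounts of 0.1 and 0.01, the minimum FPKM of 5 and the subtraction of the receptor median left all 27 log2 ratios of the 9 genes within 0.1 of the reported ones, with 1 change of sign, from 0.03 to -0.04 for Pnpla1 in keratinocytes. Summing over loci moved only Smpd1 after plucking, so that 0 of 9 genes were at least 2-fold lower there. The sum was not taken for the other pathway genes, so their 2-fold calls, such as that of Smpd2, rest on the largest locus of each. Centring on the median ratio of genes reaching 1 FPKM in both genotypes (-0.15 in keratinocytes) moved the median of the 9 genes there to 0.09. Relative to Krt5 and Krt14, the median was 0.39 after plucking, with 1 gene (Alox12b) at least 2-fold higher, and -0.32 in wounds. These 2 keratins did not move together. After plucking Krt5 had a log2 ratio of 0.46 and Krt14 of -0.52, and in wounds -0.02 and 0.48. The other basal markers Itga6, Col17a1 and Krt15 were at 0.95, 1.04 and -0.15 after plucking. The results of this scaling therefore depend on the basal markers chosen. Relative to Krt1 and Krt10, which were themselves higher in JunB cKO by 0.55, 0.83 and 0.62 on the log2 scale, the medians were -0.61, -0.69 and -0.62, and 1 gene (Elovl4), 3 genes (Elovl4, Ugcg and Smpd1) and 1 gene (Pnpla1) were at least 2-fold lower in keratinocytes, plucked skin and wounds; 14 of 27 ratios changed sign under this scaling and 5 under the basal keratins. These keratin scalings shift all genes of a table alike. Krt1 and Krt10 had higher log2 ratios than the other suprabasal markers in each table, so the results of scaling by them depend on that choice. The shares of all genes past 2-fold under them were not computed, so these counts have no background beside them. With a limit of 1.5-fold and no scaling, 1 gene was lower in keratinocytes, and 1 was higher and 2 were lower after plucking. Without a minimum FPKM, the shares of all genes at least 2-fold higher and lower were 9.31% and 0.847%, 6.42% and 5.62%, and 2.14% and 1.97%. No paired analysis was possible because the wound table holds 1 value per genotype for both libraries, and fits without 1 replicate could not be made for the same reason. All differences lack a replicate check, and counting error could not be given for plucked wild type skin.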

Other observations

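Over the 6 values, the mean log2(FPKM + 1) of the 9 barrier genes was 5.29 in wild type against 5.23 in JunB cKO keratinocytes, 5.57 and 5.52 after plucking, and 4.61 and 4.58 in wounds, so that it differed more between the tables than between genotypes. The tables differ in normalization and in cell composition, and the part of these in the order was not tested. Among 8547 genes at a mean FPKM of at least 5 outside the lists, the profiles most like this mean included those of 2900097C17Rik (Pearson r 0.992 over 6 values), Fam81a (0.991), Spag1 (0.989) and Chl1 (0.989). Chl1, for example, was at 86.3 and 70.6 FPKM in unperturbed keratinocytes, 124 and 143 after plucking, and 31.5 and 32.3 in wounds. With 6 points that share 3 tables these correlations are descriptions only.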
